A study of Mus musculus with 2 samples.

Results

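The G2 and mitosis genes described here are 34 genes whose products carry a cell from the end of DNA replication through chromosome segregation to cytokinesis. All 34 were found by symbol among the 22480 genes of both libraries. Each library pooled cells of 10 C57BL/6 mice, 5 males and 5 females, at an age of 8 weeks. The injured library was taken 3 days post injury (3 dpi) and the other from sham mice. How the cord was injured is not stated in the sources used here. In both groups an 8 mm piece of spinal cord around the injury site was dissociated, and cells were captured in droplets with a 10X 3′ kit that counts transcripts by unique molecular identifiers (UMIs). Each group was 1 library, so no test was possible, and effects of the library and of the injury cannot be told apart. Bracketed ranges are 95% intervals and take in counting error alone.

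The 3 dpi library held 149291783 UMIs in 13594 barcodes and the sham library 76889038 UMIs in 10138 barcodes. After filters and removal of called doublets, 12108 cells at 3 dpi and 9306 sham cells remained. The libraries shared 39 barcodes. Cells were clustered with the members and other cell cycle genes kept out of the clustering, and clusters were named from marker genes. Classes are therefore called microglia-like and so on. They include precursor-like cells, whose markers are those of oligodendrocyte precursors. Of 34 clusters 4 had no name, among them cluster 15, whose leading genes were the antigen-presentation genes H2-Eb1, H2-Aa, H2-Ab1 and Cd74. Most 3 dpi microglia-like cells lay in clusters 4 and 5, against clusters 8 and 10 in sham, and most 3 dpi precursor-like cells in cluster 11, against clusters 21 and 28 in sham. Endothelial-like cells lay mostly in cluster 18 at 3 dpi and in cluster 3 in sham.

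Entry into mitosis is driven by the kinase Cdk1 bound to A- and B-type cyclins, with Aurora and Polo kinases acting at the spindle and the centromere. Progress out of mitosis depends on the anaphase-promoting complex, a ubiquitin ligase that marks cyclins and other mitotic proteins for degradation. Transcripts of these genes are low in resting cells and accumulate together in G2. In the healthy adult cord most cells are resting, and oligodendrocyte precursors are known as a class that keeps dividing at a low rate.

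The members' promoters were compared because such genes are known to share 2 short elements. One is the cell cycle homology region, bound by the complexes that silence these genes in resting cells and activate them in G2. The other is the box bound by the factor NF-Y. RefSeq promoter windows of the mouse build GRCm38.p6, from 250 bases before to 50 bases after the start, were at hand for 29 members. The homology region was searched as the letters TTTGAA, which read TTCAAA on the opposite strand, and as the letters TTCGAA, which read the same on both strands. The NF-Y box was searched as the letters CCAAT, which read ATTGG on the opposite strand. Matches of the 2 kinds overlapped in 1 member, Cdca8, by 1 base. The promoters below show both motifs in capitals within the 120 bases before the start. They are the 5 members with the highest microglia-like levels at 3 dpi among those that hold both motifs in this stretch. Each is written 5′ to 3′ on the gene's own strand.

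Hmgb2 (chr8:57511723-57511842, plus strand): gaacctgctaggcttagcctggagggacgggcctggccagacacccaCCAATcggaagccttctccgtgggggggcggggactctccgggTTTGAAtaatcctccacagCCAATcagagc

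Top2a (chr11:99024190-99024309, minus strand): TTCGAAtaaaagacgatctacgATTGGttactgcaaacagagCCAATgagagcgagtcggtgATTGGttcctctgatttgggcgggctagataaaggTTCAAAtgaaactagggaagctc

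Ube2c (chr2:164769809-164769928, plus strand): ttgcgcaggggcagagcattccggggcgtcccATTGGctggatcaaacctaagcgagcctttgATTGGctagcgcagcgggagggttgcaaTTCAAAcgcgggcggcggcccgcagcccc

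Cdk1 (chr10:69352913-69353032, minus strand): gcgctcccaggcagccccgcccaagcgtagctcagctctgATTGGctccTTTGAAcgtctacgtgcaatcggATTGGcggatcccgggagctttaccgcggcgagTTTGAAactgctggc

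Cdc20 (chr4:118437344-118437463, minus strand): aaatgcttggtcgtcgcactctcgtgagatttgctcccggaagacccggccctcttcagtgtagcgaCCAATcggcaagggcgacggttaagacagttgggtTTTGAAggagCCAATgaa

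In these 5 promoters the homology region nearest to the start began 15 bases (Cdk1), 18 bases (Cdc20), 23 bases (Top2a), 29 bases (Ube2c) and 30 bases (Hmgb2) before it. Top2a held 3 NF-Y boxes in the stretch and the other members shown held 2. Of the 29 members with a window, 24 (82.8%) held a homology region, against 21.7% of 27025 genes with a window. An NF-Y box was present in 23 (79.3%), against 41.1% of all genes, and 2 or more boxes in 16 (55.2%), against 13.3%. Both motifs were present in 21 members (72.4%), against 9.65% of all genes. The homology region lay within 50 bases of the start in 22 members, and an NF-Y box lay in the 100 bases before the start in 21. These positions were not read over all genes, so the 2 counts have no background. The windows of Birc5, Nuf2 and Nusap1 held neither string of letters. Ccna2, Tpx2, Stmn1, Aurkb and Kif20a had no window in the table. A match is a description of the sequence and no evidence of binding.

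**Figure D1:**
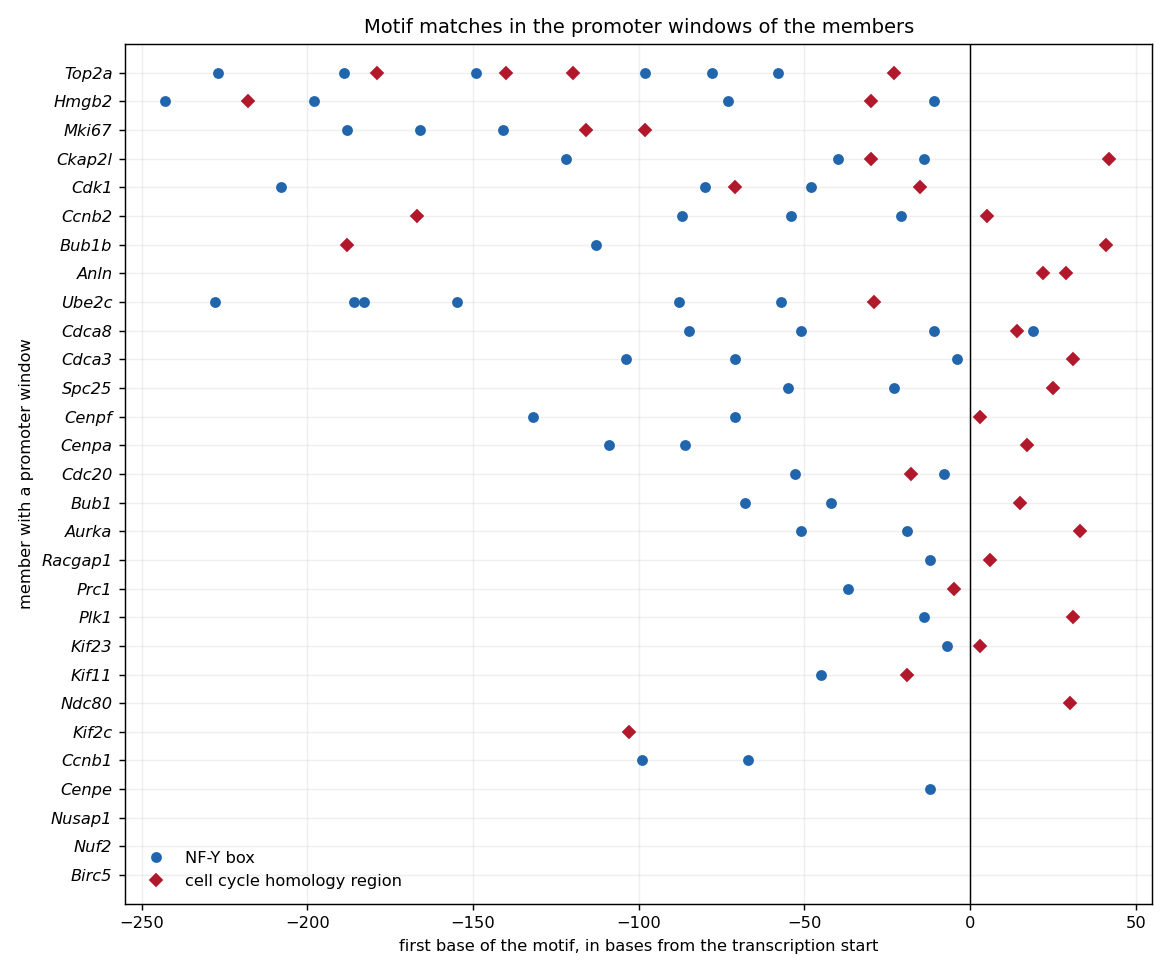
First base of each motif match, in bases from the transcription start (x axis), in the promoter windows of 29 members (y axis). Circles are NF-Y boxes and diamonds are cell cycle homology regions, which lay within 50 bases of the start in 22 members. Positions were not read over all genes.

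To compare cells at equal depth, each cell was thinned to 1000 UMIs, and a cell was counted when it then held UMIs of at least 3 of the 34 members. At 3 dpi such cells made up 34.7% of microglia-like cells (855 of 2462; 32.8 to 36.6%), against 0.144% in sham (3 of 2078; 0.0298 to 0.421%). This was a 241-fold higher share (82.0 to 1169). Among precursor-like cells the share was 50.2% at 3 dpi (440 of 877; 46.8 to 53.5%), against 2.90% in sham (10 of 345; 1.40 to 5.27%), or 17.3-fold higher (9.32 to 36.3). Of the 10 sham cells, 5 lay in cluster 21 (of 257) and 5 among 21 sham cells in cluster 11, the main 3 dpi cluster, while cluster 28 had 0 of 67. Without the sham cells of cluster 11 the sham share was 1.54% (5 of 324; 0.503 to 3.56%) and the 3 dpi share 32.5-fold higher (13.8 to 101). Endothelial-like cells stood at 23.3% at 3 dpi (94 of 403; 19.3 to 27.8%) and 0.222% in sham (3 of 1350; 0.0459 to 0.648%), or 105-fold higher (34.8 to 518).

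Other classes could be read in 1 library or with few sham cells. Of 139 border macrophage-like cells, which carry Mrc1, Lyve1 and Cd163, 39 (28.1%; 20.8 to 36.3%) held at least 3 members at 3 dpi. In sham it was 0 of 51, with an interval that reaches 6.98%. Fibroblast-like cells at 3 dpi reached 29.6% (196 of 663; 26.1 to 33.2%), while sham held 17 such cells, too few for a comparison. Astrocyte-like cells at 3 dpi reached 50% (34 of 68; 37.6 to 62.4%) after 50 of 118 cells were left out as shallower than 1000 UMIs. Ependymal-like cells reached 37.7% (29 of 77; 26.9 to 49.4%).

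Leukocytes that had few or no cells in sham showed lower shares at 3 dpi than the classes above. Monocyte/macrophage-like cells had 1.23% (40 of 3253; 0.880 to 1.67%) and neutrophil-like cells 2.12% (17 of 802; 1.24 to 3.37%), with 664 neutrophil-like cells left out as too shallow. In cluster 15 the share was 11.97% (65 of 543; 9.36 to 15.002%). T and NK-like cells had 4 of 68 (5.88%; 1.63 to 14.4%) and B-like cells 1 of 55 (1.82%; 0.0460 to 9.72%). Of all 1890 such cells at 3 dpi, microglia-like cells made up 45.2%, precursor-like cells 23.3% and fibroblast-like cells 10.4%.

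**Figure D2:**
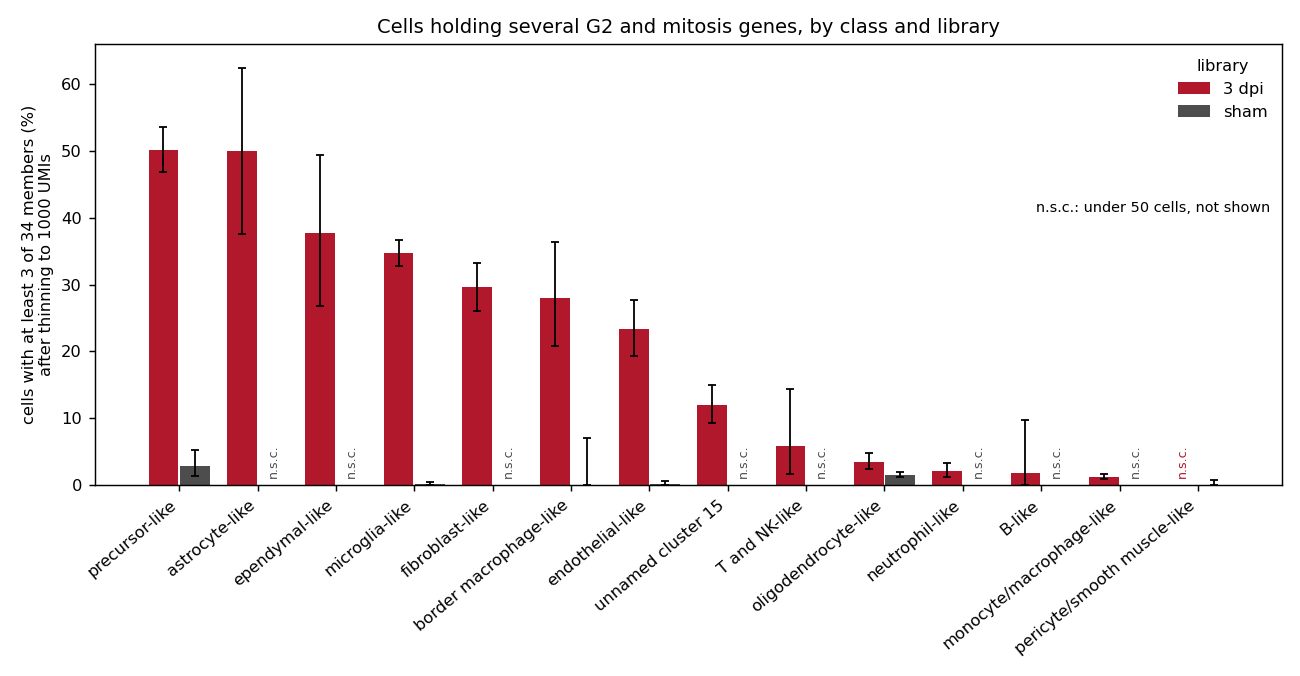
Share of cells (%, y axis) with UMIs of at least 3 of the 34 members after thinning to 1000 UMIs, by class (x axis), with the 3 dpi library in red and the sham library in grey; error bars are exact 95% binomial intervals for counting error. Precursor-like cells stand at 50.2% at 3 dpi and 2.90% in sham, and monocyte/macrophage-like cells at 1.23% at 3 dpi.

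Oligodendrocyte-like cells, which are not expected to divide, served as the background. Their share was 3.48% at 3 dpi (37 of 1064; 2.46 to 4.76%) and 1.54% in sham (66 of 4291; 1.19 to 1.95%), at median depths of 10221.5 UMIs and 7535 UMIs per cell. Without Hmgb2, Stmn1 and Anln, which resting classes also held, these shares were 0.940% at 3 dpi and 0.0233% in sham. With the same 31 members the share was 27.2% in microglia-like cells at 3 dpi and 0 of 2078 in sham, and 41.5% in precursor-like cells at 3 dpi and 2.03% in sham. The 1.23% of monocyte/macrophage-like cells and the 2.12% of neutrophil-like cells were below the 3.48% of the 3 dpi oligodendrocyte-like cells. With the 31 members the shares were 0.984% in monocyte/macrophage-like cells (32 of 3253), 0.499% in neutrophil-like cells (4 of 802) and 0.940% in oligodendrocyte-like cells (10 of 1064). Neither leukocyte share was thus clearly above the share of the oligodendrocyte-like class. Single monocyte/macrophage-like cells held up to 11 members, but single oligodendrocyte-like cells also held up to 11 at 3 dpi and up to 12 in sham. The background itself differed by cluster at 3 dpi. With the 31 members it was 0.549% in cluster 12 (4 of 728) and 1.92% in cluster 20 (6 of 312). Cluster 13, left unnamed although oligodendrocyte markers were its best match, had 0 of 696. A comparison with the background thus depends on the clusters taken for it, and no difference from it is read from these shares. Without thinning, 84.2% of microglia-like cells at 3 dpi, at a median of 13855.5 UMIs, and 4.60% in sham, at a median of 3906 UMIs, held at least 3 members.

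Within classes, both sexes and every large 3 dpi cluster held such cells. Microglia-like cluster 5 had 37.7% (437 of 1159) and cluster 4 had 32.6% (412 of 1262). Cluster 4 is less firmly named: with called doublets kept, 792 cells with its leading genes fell in a cluster with no name, at 27.0%. Fibroblast-like cluster 17 had 33.0% (150 of 454) and cluster 22, which carries Dcn and Lum, had 22.01% (46 of 209; 16.6 to 28.2%). At 3 dpi, male-derived microglia-like cells had 37.7% and female-derived ones 34.6%. Male-derived precursor-like cells had 56.4% (50.9 to 61.9%) and female-derived ones 49.2% (43.3 to 55.01%). Among barcodes called doublets the share was 21.8% at 3 dpi and 2.82% in sham.

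The number of members seen per cell spread widely. At 3 dpi, 30.3% of microglia-like cells and 18.1% of precursor-like cells held 0 members after thinning, against 68.1% and 71.9% of the same classes in sham. Cells with 10 or more members were 16.3% of precursor-like cells at 3 dpi, with a highest count of 20, and 1.16% in sham, with a highest count of 17. In microglia-like cells at 3 dpi they were 2.19%, with a highest count of 15, while no sham cell of the class held more than 3. Cells just inside the limit, with 3 members, numbered 209 of the 2462 microglia-like cells at 3 dpi, and those just outside it, with 2, numbered 299.

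**Figure D3:**
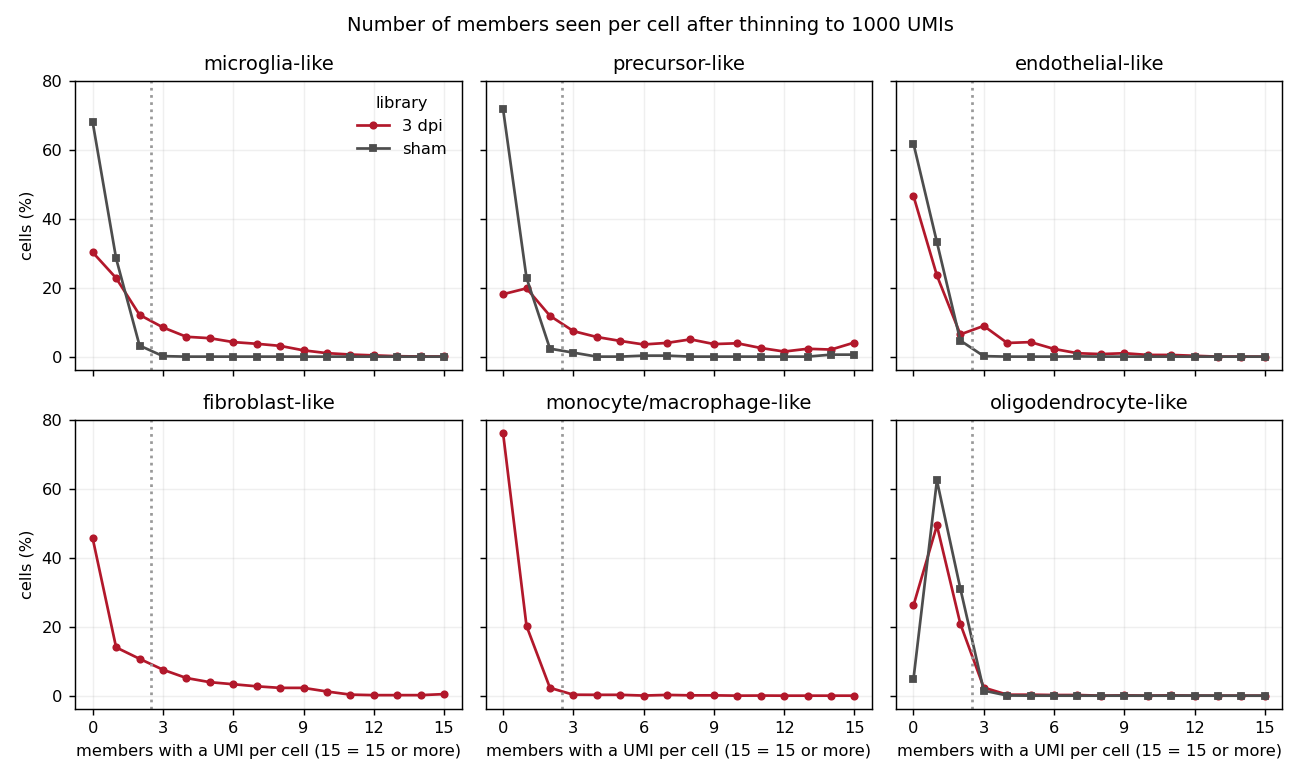
Share of cells (%, y axis) by the number of members with a UMI after thinning to 1000 UMIs (x axis; 15 stands for 15 or more), at 3 dpi (red circles) and in sham (grey squares), for 6 classes. The dotted line marks the limit of 3 members; the 3 dpi curves of microglia-like and precursor-like cells have long right tails, while most oligodendrocyte-like cells hold 1 or 2 members in both libraries.

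Levels of the members were summed over the cells of a class and scaled to 1000000 UMIs (CPM). UMIs count transcript ends, so no length scaling applies. By a size rule, a gene at 20 CPM or more in either library was called higher or lower where its CPM, each raised by 10, differed at least 2-fold. In microglia-like cells 29 of 30 such members were higher at 3 dpi and none was lower, beside 11.7% of all genes higher. In precursor-like cells it was 33 of 34, beside 8.07% of all genes, and in endothelial-like cells 24 of 27, beside 8.24%. A member could reach 20 CPM through the 3 dpi level alone, so these counts are descriptions. Counted at any level, the same ratio was reached by 32, 33 and 30 of the 34 members in these classes. The share of all genes at any level was not taken, so these counts have no background. Over all genes that reached 20 CPM the log2 ratio had a median of −0.16 in microglia-like, −0.21 in precursor-like and −0.26 in endothelial-like cells, beside 2.67, 2.66 and 2.13 for the members that reached it. The shift against a median-of-ratios scaling was −0.20, −0.26 and −0.32, and with that scaling 30, 33 and 27 members were higher. The share of all genes was not taken with that scaling either.

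Summed over the 31 members without Hmgb2, Stmn1 and Anln, the level was 5521 CPM in precursor-like cells at 3 dpi, against 418 CPM in sham (199.9 CPM without the sham cells of cluster 11), and 2256 CPM in microglia-like cells at 3 dpi, against 23.6 CPM in sham. Astrocyte-like cells had 3758 CPM and ependymal-like cells 2758 CPM at 3 dpi. Endothelial-like cells had 1751 CPM at 3 dpi and 46.5 CPM in sham, and fibroblast-like cells 2338 CPM at 3 dpi. Monocyte/macrophage-like cells had 238 CPM and neutrophil-like cells 313 CPM at 3 dpi, while cluster 15 had 1293 CPM and T and NK-like cells 1421 CPM. Oligodendrocyte-like cells, the background, had 172 CPM at 3 dpi and 32.6 CPM in sham. A larger share of cells with these transcripts and more transcripts per such cell cannot be told apart in a sum.

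Among the genes of chromosome structure, Mki67, which coats mitotic chromosomes and is the usual marker of proliferation, stood at 219 CPM in 3 dpi microglia-like cells and at 0.220 CPM (2 UMIs) in sham. The ratio was 996-fold (276 to 8228). In precursor-like cells Mki67 had 369 CPM at 3 dpi and 12.3 CPM in sham, with a ratio between 20.9 and 44.9. Endothelial-like cells held 104 CPM of Mki67 at 3 dpi and 2.25 CPM in sham. Without the 26 sham precursor-like cells of cluster 11, the sham level of Mki67 in that class was 4.05 CPM (9 UMIs). The sham levels of precursor-like cells given below include these cells. The count of 33 of 34 higher members was the same without them. Top2a, the topoisomerase that untangles replicated DNA, had 195 CPM in microglia-like cells at 3 dpi, against 0.439 CPM in sham. It had 444 CPM in precursor-like cells at 3 dpi, against 28.4 CPM in sham.

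Hmgb2, a DNA-bending chromatin protein, was the exception. Microglia-like cells held 407 CPM at 3 dpi and 249 CPM in sham, a ratio of 1.64 (1.57 to 1.71) that stayed under the 2-fold rule. In precursor-like cells Hmgb2 had 837 CPM at 3 dpi and 162 CPM in sham (5.16-fold; 4.66 to 5.74). Its level did not follow the share of cells with several members across classes: at 3 dpi it was 1042 CPM in T and NK-like cells, 1011 CPM in neutrophil-like cells and 622 CPM in B-like cells.

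The cyclins and their kinase were higher together in all 3 classes. Cdk1 had 129 CPM in microglia-like cells at 3 dpi, against 2.20 CPM in sham, and 238 CPM in precursor-like cells at 3 dpi, against 15.7 CPM in sham. Ccnb1 had 55.4 CPM in microglia-like cells at 3 dpi (1983 UMIs) and 0 UMIs in sham, so it was at least 168-fold higher against a floor of 3 UMIs. Ccna2, the cyclin of S phase and G2, likewise had 58.4 CPM at 3 dpi and 0 UMIs in sham, at least 177-fold higher. In sham precursor-like cells both cyclins were detected, at 18.7 CPM for Ccnb1 and 5.52 CPM for Ccna2, against 178 CPM and 101 CPM at 3 dpi.

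The mitotic kinases were among the lower members. In microglia-like cells Plk1, the Polo kinase of mitotic entry, had 34.1 CPM at 3 dpi and 0.329 CPM in sham. Aurka, the Aurora kinase of the spindle poles, had 24.2 CPM at 3 dpi and 0.659 CPM in sham. Bub1, a kinase of the spindle checkpoint, had 22.4 CPM at 3 dpi and 0 UMIs in sham. In the chromosomal passenger complex, which corrects faulty attachments of chromosomes, the subunit Birc5 (survivin) had 216 CPM at 3 dpi and 0.220 CPM (2 UMIs) in sham microglia-like cells. Its kinase Aurkb had 38.8 CPM at 3 dpi and 0.769 CPM in sham. In precursor-like cells Birc5 had 366 CPM at 3 dpi and 25.9 CPM in sham.

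At the centromere, Cenpa, the histone variant that marks it, had 117 CPM in microglia-like cells at 3 dpi and 1.65 CPM in sham. Cenpf, a large protein of the outer kinetochore, had 82.5 CPM in microglia-like cells at 3 dpi and 0.988 CPM in sham, but 419 CPM in precursor-like cells at 3 dpi and 35.7 CPM in sham. The kinetochore subunits Ndc80, Nuf2 and Spc25, which bind microtubules, had 18.8 to 40.9 CPM in microglia-like cells at 3 dpi and at most 0.769 CPM in sham.

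Around the anaphase-promoting complex, Ube2c, its ubiquitin-conjugating enzyme, had 190.5 CPM in microglia-like cells at 3 dpi and 0.110 CPM (1 UMI) in sham (1734-fold; 311 to 68511). It was the highest member but for Hmgb2 and Stmn1 in precursor-like cells at 3 dpi, at 513 CPM, against 40.3 CPM in sham. It also led in endothelial-like cells by the same measure, at 228 CPM at 3 dpi and 0.346 CPM in sham. Cdc20, which activates the complex, had 42.0 CPM in microglia-like cells at 3 dpi and 0.549 CPM in sham.

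Among the spindle and cytokinesis genes, Tpx2, which activates Aurka at the spindle, had 78.8 CPM in microglia-like cells at 3 dpi and 0.769 CPM in sham. Prc1, which bundles the microtubules of the central spindle, had 379 CPM in precursor-like cells at 3 dpi and 28.4 CPM in sham, against 71.2 CPM and 0.549 CPM in microglia-like cells. Stmn1, which destabilizes microtubules, had 550.4 CPM in microglia-like cells at 3 dpi and 135 CPM in sham (4.06-fold; 3.84 to 4.31). With called doublets kept, this difference was lost, at a log2 ratio of −0.0889. In endothelial-like cells its levels were 427 CPM at 3 dpi and 392 CPM in sham, a ratio of 1.09. Anln, an actin-binding protein of the cleavage furrow, had 51.9 CPM in precursor-like cells at 3 dpi and 41.2 CPM in sham, the 1 member there under the 2-fold rule.

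**Figure D4:**
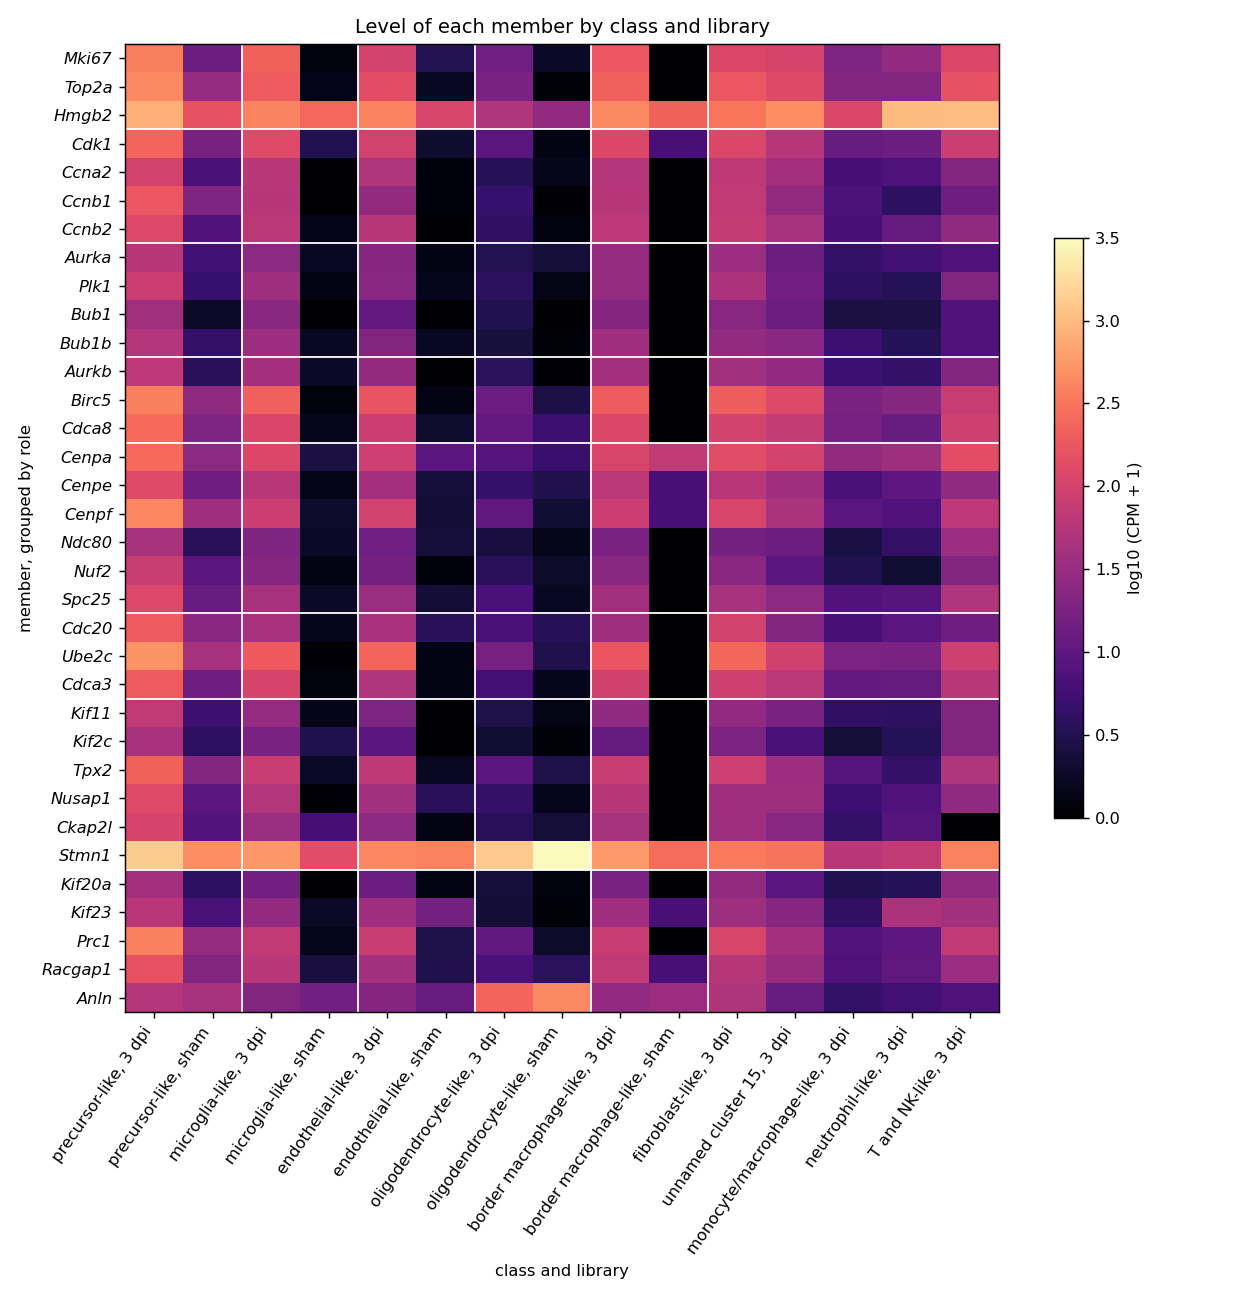
Level of each member as log10 (CPM + 1) (colour), with members grouped by role (y axis) and classes by library (x axis), 3 dpi left of sham where both are shown. Precursor-like cells at 3 dpi have the highest level of 30 of the 34 members among all classes with at least 50 cells in a library. Astrocyte-like cells and ependymal-like cells, the latter highest for Kif23, are not drawn. Stmn1 and Anln are highest in sham oligodendrocyte-like cells, at 3022 CPM and 441 CPM.

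Across the classes with at least 50 cells in a library, precursor-like cells at 3 dpi held the highest level of 30 of the 34 members. The other 4 were Hmgb2, highest in T and NK-like cells, Kif23, highest in ependymal-like cells at 62.4 CPM beside 58.9 CPM in precursor-like cells, and Stmn1 and Anln, highest in sham oligodendrocyte-like cells. In that class Stmn1 had 1281 CPM at 3 dpi and 3022 CPM in sham (0.424-fold; 0.417 to 0.431), and Anln had 232 CPM at 3 dpi and 441 CPM in sham (0.526-fold; 0.506 to 0.547). Stmn1 was the 1 member called lower there, beside 5.25% of all genes, and 0 of the 3 measured members were higher, beside 6.32%. Kif23, a motor of the central spindle, stood apart in neutrophil-like cells at 3 dpi, at 46.8 CPM (80 UMIs). It was also seen in sham endothelial-like cells, at 14.5 CPM (84 UMIs), so that its ratio there was 2.44-fold (1.90 to 3.16) against 35.4 CPM at 3 dpi. In sham microglia-like cells Ckap2l, a spindle protein, was the highest of the 31 members left without Hmgb2, Stmn1 and Anln, at 5.16 CPM (47 UMIs).

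Border macrophage-like cells gave 28 of 31 measured members higher at 3 dpi, beside 15.7% of all genes. That count rests on 51 sham cells in which 25 members had 0 UMIs. With called doublets kept, with a stricter cell filter or with cell cycle genes in the clustering, the class had 52 or 53 sham cells and the count was 5, 6 or 12. In the same order it had 194, 157 and 192 cells at 3 dpi, against 139 with the settings used above. The share of all genes was not taken for these counts.

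The makeup of the member UMIs was compared among cells with at least 3 members at 3 dpi. In microglia-like cells Stmn1 gave 13.3% of them, Hmgb2 11.4%, Mki67 7.25%, Birc5 6.83%, Top2a 6.62% and Ube2c 6.54%. The order of the members was close between classes, with Spearman's rho between 0.896 and 0.976 over 34 members for the 10 pairs of 5 classes. It is given as a description, since the members were the same and cells came from 1 library. The cells were also picked by these same members, and how far the pick shaped the order was not tested. Top2a varied least, from 5.94% to 6.62% of member UMIs. Cdc20 varied most, at 3.48% in fibroblast-like, 2.64% in precursor-like, 1.67% in endothelial-like, 1.45% in microglia-like cells and 1.06% in cluster 15, a 3.27-fold range. Prc1 and Cenpf took larger shares in precursor-like cells (5.10% and 5.75%) than in microglia-like cells (2.53% and 2.99%). Mki67 took 7.25% in microglia-like cells and 4.03% in fibroblast-like cells.

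**Figure D5:**
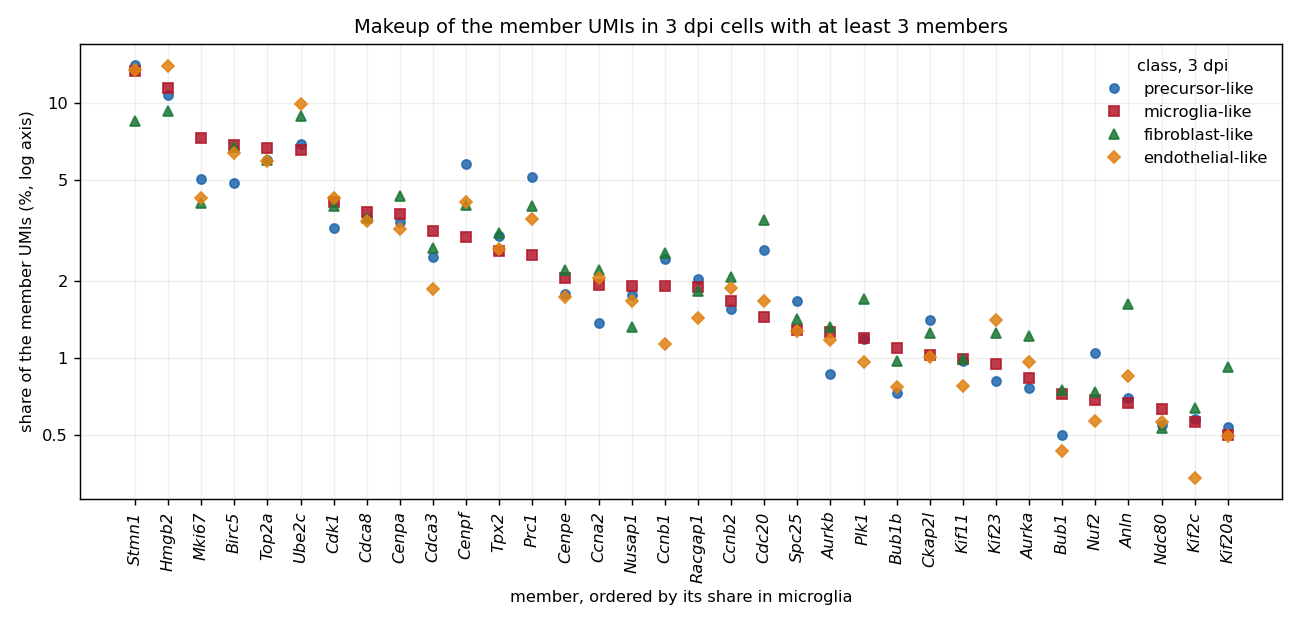
Share of each member in all member UMIs (%, y axis, log scale) in 3 dpi cells with at least 3 members, for 4 classes (symbols), with members ordered by their share in microglia-like cells (x axis). Most members keep their order, and Anln, Cdc20, Ccnb1, Prc1 and Cenpf are among those that lie apart between classes.

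Genes of the cell cycle that are not members were read in the same cells. At 3 dpi, at least 3 of 51 S-phase genes were seen at 1000 UMIs in 45.4% of microglia-like cells with several members, against 11.5% of those with 0 members. In precursor-like cells these shares were 69.5% and 8.18%. Cells with several members were deeper than cells with 0, at median depths of 15492 and 12315.5 UMIs in microglia-like cells and 14329.5 and 7779 UMIs in precursor-like cells; its part in the levels below was not tested. Of 88 genes on a list of other mitosis genes, 64 were measured in microglia-like cells. Of these, 60 were at least 2-fold higher in cells with several members and none was lower, beside 3.74% of all genes higher. In precursor-like cells it was 78 of 82, beside 4.74%. In fibroblast-like cells it was 62 of 67, beside 3.65%, and in endothelial-like cells 54 of 62, beside 3.04%. In cluster 15 it was 56 of 60, beside 4.83% of all genes higher and 2.78% lower. Here and in the lists below, a measured gene could reach the CPM limit of the size rule through either group of cells alone. For the mitosis genes this could be the cells with several members, so these counts are descriptions of the genes that reached it.

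Outside all lists, genes were ranked by how much higher they were in cells with several members than in cells with 0 members. Genes lower in cells with several members could not lead this ranking. In microglia-like cells the leading genes were Hist1h2ap, Hist1h1b, Hist1h2ae, Tmpo, Ube2s, Rangap1, Rad21, Hist1h1e, Cxcl10 and Exosc8. Histone genes, whose transcripts accumulate in S phase, led: Hist1h2ap had 844 CPM in cells with several members and 62.7 CPM in cells with 0. Ube2s, a further ubiquitin-conjugating enzyme of the anaphase-promoting complex, had 561 CPM and 132 CPM. Cxcl10, a chemokine induced by interferon, had 459 CPM and 143 CPM in the same groups (3.22-fold). It was higher within both large clusters, at 214 CPM and 70.0 CPM in cluster 4 and at 779 CPM and 248 CPM in cluster 5. In precursor-like cells the leading genes were Hist1h1b, Hist1h2ap, Mns1, Dbf4, Hist1h2ae, Tmpo, Hat1, Pmf1, Fam111a and Rangap1. Dbf4, the partner of the kinase that fires replication origins, had 107 CPM in cells with several members and 4.38 CPM in cells with 0.

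Genes of the class itself differed little in microglia-like cells. None of 14 homeostatic genes passed the 2-fold rule in either direction, beside 3.74% of all genes higher and 0.152% lower. Tmem119 had 260 CPM in cells with several members and 186 CPM in cells with 0, and P2ry12, the purinergic receptor of resting microglia, 88.5 CPM and 90.4 CPM. None of 16 measured phagocyte genes passed it either, and their median log2 ratio was −0.39, beside 0.09 for all genes. Spp1 (osteopontin) had 32626 CPM in cells with several members and 45314 CPM in cells with 0, and Lgals3 (galectin-3) 1174 CPM and 2212 CPM. These pooled values mix clusters. Within cluster 4 Spp1 had 47065 and 59723 CPM in the same order, and within cluster 5 it differed little, at 13003 and 13292 CPM. The median log2 ratio of the measured phagocyte genes was −0.29 within cluster 4 and −0.33 within cluster 5. Within cluster 5, 1 homeostatic gene, Siglech, passed as lower. The share of all genes was not taken within clusters.

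In precursor-like cells with several members, 5 of 14 identity genes were lower, beside 2.27% of all genes lower: Gpr17, Neu4, Tnr, Bcan and Lhfpl3. Gpr17, a receptor of precursors committed to differentiation, had 53.8 CPM in cells with several members and 369 CPM in cells with 0. Pdgfra, the receptor that drives precursor division, had 305 CPM and 294 CPM. Of 12 measured genes of the premyelinating stage 10 were lower. Within cluster 11, which held all 440 cells with several members, 2 of 14 identity genes (Gpr17 and Neu4) and 1 of 9 premyelinating genes (Itpr2) were lower. The share of all genes was not taken within that cluster.

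In fibroblast-like cells 2 of 14 matrix genes were lower in cells with several members, beside 1.83% of all genes lower. Dcn (decorin) had 1653 CPM in cells with several members and 4232 CPM in cells with 0, and Lum (lumican) 125 CPM and 297 CPM. Dcn was lower within both cluster 17 and cluster 22, and Lum and Postn (periostin) passed the 2-fold rule as lower within cluster 22 and not within cluster 17. For these clusters too, the share of all genes was not taken. Median depths were 23004 UMIs in cells with several members and 14063 UMIs in cells with 0. In endothelial-like cells 1 of 13 identity genes, the tip cell ligand Apln, was lower, at 211 CPM in cells with several members and 532 CPM in cells with 0, beside 0.552% of all genes. Median depths there were 26836.5 and 9117 UMIs.

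Between the libraries, the other cell cycle lists were read in microglia-like cells. As for the members, a gene could reach 20 CPM through the 3 dpi level alone, so these counts too are descriptions of the genes that reached it. Of 51 S-phase genes 36 reached it and 33 were higher at 3 dpi, beside 11.7% of all genes. Pclaf, a partner of the replication clamp, had 191 CPM at 3 dpi and 0 UMIs in sham, at least 580-fold higher, and Rrm2, a subunit of ribonucleotide reductase, 52.9 CPM and 0 UMIs, at least 161-fold higher. Tk1, Gmnn and Lig1 followed. Of 88 other mitosis genes 33 reached it and 25 were higher, led by Cks1b (122 CPM at 3 dpi, 4.50 CPM in sham), Spc24, Pbk, Smc4 and Cdkn3. Over all other mitosis genes with any UMI the median log2 ratio was 1.13, against 1.62 over the 33. Genes of G1 and cell cycle inhibitors were divided, with 4 of 21 measured higher and 5 lower, beside 11.7% and 16.9% of all genes. Cdk4, the kinase of G1, had 162 CPM at 3 dpi and 47.2 CPM in sham, and the inhibitor Cdkn2c 34.3 CPM and 3.73 CPM. Btg2 and Btg1, known as antiproliferative genes, were lower, Btg2 at 261 CPM at 3 dpi and 3384 CPM in sham and Btg1 at 258 CPM and 981 CPM. Myc, also an immediate response gene, was lower at 6.74 CPM at 3 dpi and 40.3 CPM in sham. Cluster 10, with 1033 sham microglia-like cells, had Ier5, Tnf and Egr3 among its leading genes, beside Siglech and P2ry12. Its part in the sham levels of Btg2, Btg1 and Myc was not tested. In precursor-like cells 37 of 43 measured S-phase genes and 59 of 72 measured other mitosis genes were higher at 3 dpi, beside 8.07% of all genes. Of 23 measured genes of G1 and inhibitors 7 were higher and 3 lower there, beside 8.07% of all genes higher and 13.2% lower. In endothelial-like cells 22 of 31 measured S-phase genes and 17 of 26 measured other mitosis genes were higher, beside 8.24% of all genes, and 1 other mitosis gene was lower. Of 23 measured genes of G1 and inhibitors 2 were higher, a share close to the 8.24% of all genes, and 5 were lower, beside 13.6%.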

How the data were processed

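The deposited files hold raw counts, the UMIs of each gene in each barcode, for the same 22480 symbols in both libraries. Per the submitters' processing notes, Cell Ranger and Seurat were used, without versions, and the build named is GRCh38, a human build, although the symbols are mouse symbols. No gene position was taken from the files, and promoters come from RefSeq (GRCm38.p6). The tables hold 0 mitochondrial rows.

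Cells needed 200 genes and 500 UMIs. Doublets were scored against simulated doublets, and the expected number (0.8% per 1000 cells) was removed: 1476 at 3 dpi and 820 in sham. Median depth of kept cells was 8448.5 UMIs at 3 dpi and 5255 UMIs in sham. Counts were scaled to 10000 per cell. From 2000 variable genes per library, without cell cycle, histone, ribosomal and sex-linked genes, 30 principal components and 15 neighbours gave 34 Leiden clusters at resolution 1.0. A cluster took the class of 17 whose markers led. At least 3 of them had to be 2-fold above the median cluster and seen in 10% of cells. It stayed unnamed where another class had more of the leading genes, where depth was low or where another class mixed in. Cells were called male- or female-derived by Y-linked UMIs or Xist.

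Levels are summed UMIs per class and library as CPM, with exact Poisson intervals. Ratios have exact conditional intervals, and shares exact Clopper-Pearson intervals. They leave out the spread between cells, mice and libraries. A floor of 3 UMIs stands for 0 in ratios. Cells with 3 or more members and cells with 0 members at 1000 UMIs were compared on unthinned counts. Classes with 50 cells in a library were read. The members, lists and named-gene rule were chosen with earlier results of these data known. Named were all members and 5 genes of each cell cycle list with the largest ratio in microglia-like cells. Outside the lists the 10 genes most increased in cells with several members over cells with 0 were named. They needed 100 CPM or more in cells with several members. Class genes named beyond these were picked after their values were seen. The size rule and the thinning were tested on simulated data. Alternatives were thinning depth and seed, member number, doublets, cell filter, resolution, cell cycle genes in the clustering, sex, added CPM, scaling, free RNA and the 20 CPM filter. Leaving out Hmgb2, Stmn1 and Anln, the shared barcodes, or the sham cells of cluster 11, and reading within 1 cluster were chosen after seeing the data. Python 3.11.15, numpy 2.4.6, scipy 1.17.1, scikit-learn 1.9.0, igraph 0.11.9 and leidenalg 0.10.2 were used.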

Additional observations from a re-analysis of the deposited data

Results flagged for a closer look

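Stmn1 was singled out because its ratio of 3 dpi over sham pointed in opposite directions in different classes. Its log2 ratio was 1.95 in microglia-like cells, 1.49 in precursor-like cells and 1.05 in border macrophage-like cells, against −1.23 in oligodendrocyte-like cells. With 1 library per group the difference was not tested. With called doublets kept, the ratio in microglia-like cells turned to −0.0889.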

How the results depend on the processing

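No paired analysis was possible because each group was 1 library. The counts of higher members ranged from 26 to 32 in microglia-like, 32 to 34 in precursor-like and 20 to 30 in endothelial-like cells and kept within 1.5 times under each alternative. The share of all genes was not taken under the alternatives. The border macrophage-like count fell to 6 with the stricter cell filter, 12 with cell cycle genes in the clustering and 5 with doublets kept; resolution 0.5 gave no such class. The cause was not tested. Without the 20 CPM filter, 3 members were higher in oligodendrocyte-like cells. Of 1768 single ratios, 1337 stayed within their counting interval, 430 moved and 1 (Stmn1 in microglia-like cells, doublets kept, −0.0889) changed sign.

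Shares depended on depth and on the members required. For microglia-like, precursor-like, fibroblast-like and endothelial-like cells at 3 dpi they were 21.0%, 38.4%, 15.96% and 12.9% at 500 UMIs, 47.5%, 61.8%, 40.3% and 32.1% at 2000, 56.3%, 68.2%, 47.7% and 37.7% at 3000, and 84.2%, 82.0%, 71.7% and 61.2% without thinning. With 2 members they were 46.9%, 62.03%, 40.3% and 29.8%, with 5 members 20.5%, 37.1%, 16.9% and 10.4%, with 31 members 27.2%, 41.5%, 23.7% and 15.1%, and with 32 members 27.2%, 41.7%, 24.1% and 16.1%. Monocyte/macrophage-like cells had 0.704%, 2.57% and 4.24% at 500, 2000 and 3000 UMIs, 21.5% without thinning, 3.504% with 2 and 0.707% with 5 members, 1.86% with the stricter filter, 2.75% and 2.63% at resolutions 0.5 and 2.0, and 0.212% with cell cycle genes in the clustering. Sham microglia-like cells had 0% at 500, 0.549% at 2000 and 1.77% at 3000 UMIs, 4.60% without thinning, 3.37% with 2 members, and 0% with 5, 31 or 32 members. Sham endothelial-like cells had 1.19% at 2000 and 2.90% at 3000 UMIs, 6.48% without thinning, 4.89% with 2 members, 0.712% with doublets kept and 0% in female-derived cells. Sham precursor-like cells had 13.1% without thinning. Microglia-like cells at 3 dpi had 37.2% (777 of 2091) with doublets kept. In that setting a cluster of 792 cells with leading genes of cluster 4 (Hmox1, Lpl, Cd5l and others) stayed unnamed, its markers mixed with those of monocytes and macrophages, at 27.0%. Male-derived microglia-like cells had 37.7%, male-derived precursor-like cells 56.4%, and female-derived fibroblast-like cells 25.9%. Another seed and leaving out shared barcodes moved no share beyond its interval. The levels rest on 1 library per group, and small sham classes limit what can be compared.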
